A study of Homo sapiens with 6 samples.

Results

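The miR-17-92 cluster and its paralogs were followed in small RNA libraries of extracellular vesicles (EVs) released by oral cancer spheroids. The 10 members were the rows of the deposited miRNA count table named hsa-miR-17-5p, hsa-miR-18a-5p, hsa-miR-19a-3p, hsa-miR-20a-5p, hsa-miR-19b-3p and hsa-miR-92a-3p (miR-17-92 cluster), hsa-miR-106b-5p, hsa-miR-93-5p and hsa-miR-25-3p (miR-106b-25 cluster) and hsa-miR-92b-3p, a relative with a hairpin of its own. All 10 were present among the 471 rows of the table, each in a row with a single name. The cells were Cal27, a human oral squamous cell carcinoma line, grown as spheroids with the liquid overlay technique in Matrigel, and the EVs were taken from the medium on day 14. EV_soft came from spheroids in Matrigel at 3 mg/mL and EV_stiff from spheroids in Matrigel at 12 mg/mL, with 3 libraries in each group. Both groups shared the cell line, the medium with serum depleted of EVs, and isolation of the vesicles by insulator-based dielectrophoresis, and, by the labels and the study's methods, the 3 libraries of a group are biological replicates, each a separate isolation from media of repeated culture experiments. The comparison asks whether the stiffness of the matrix goes with the miRNA content of the EVs. It rests on a single cell line and on vesicles, not on the spheroids that released them. Stiffness was set by the Matrigel concentration, so it cannot be told apart from other properties of the gel that change with concentration. The study itself names gel microarchitecture as a potential confounder. Fewer vesicles carrying a miRNA and fewer copies in each vesicle cannot be told apart in such libraries.

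A miRNA finds its targets mainly through its seed, bases 2 to 8 from the 5′ end, which pairs with messenger RNA so that members with the same seed share many predicted targets. The miR-17-92 cluster, often called oncomiR-1, is a single primary transcript that is cut into several hairpins. MYC and E2F factors switch it on, and it is known for promoting proliferation and survival, partly through repression of BIM and p21. It also represses E2F1. The miR-106b-25 cluster lies in the MCM7 gene, which codes for a DNA replication helicase, and carries miRNAs of the same seeds.

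The mature sequences are shown because the members are grouped by seed in what follows. They come from RefSeq (GRCh38.p14), where all 10 names matched, and are written 5′ to 3′ with the seed in capitals. The first set holds the miR-17 seed.
hsa-miR-17-5p: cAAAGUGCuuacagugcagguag
hsa-miR-20a-5p: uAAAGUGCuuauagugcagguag
hsa-miR-93-5p: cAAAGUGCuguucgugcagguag
hsa-miR-106b-5p: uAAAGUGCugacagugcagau
The second set holds the miR-92 seed.
hsa-miR-92a-3p: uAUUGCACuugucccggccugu
hsa-miR-25-3p: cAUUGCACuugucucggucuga
hsa-miR-92b-3p: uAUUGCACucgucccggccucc
The last set holds the miR-18 seed and, in a pair of near-identical miRNAs, the miR-19 seed.
hsa-miR-18a-5p: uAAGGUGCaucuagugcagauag
hsa-miR-19a-3p: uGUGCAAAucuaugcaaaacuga
hsa-miR-19b-3p: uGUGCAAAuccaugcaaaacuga
Each miR-17 seed member is the 5p arm of its hairpin and each miR-92 seed member the 3p arm. The miR-17 seed members differed from each other at 2 to 7 bases, the miR-92 seed members at 3 to 6, and the miR-19 pair at 1, counting the difference in length. Members this close can exchange reads during counting. The paralog miR-106a-5p, which is 1 base from miR-17-5p, was listed with 0 reads in every library.

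In the genome (GRCh38) the miR-17-92 hairpins lie on chromosome 13 between 91350605 and 91351391 on the plus strand, in the order miR-17, miR-18a, miR-19a, miR-20a, miR-19b-1 and miR-92a-1, and each overlaps an exon of a transcript of the lncRNA MIR17HG in GENCODE. The miR-106b-25 group lies on chromosome 7 between 100093560 and 100094074 on the minus strand within MCM7, with the hairpins of miR-106b and miR-25 in an intron and miR-93 overlapping an exon of at least 1 MCM7 transcript. The hairpin of miR-92b lies on chromosome 1 from 155195177 to 155195272, over an exon of a transcript of the lncRNA THBS3-AS1. Mature miR-92a-3p has a second source in MIR92A2 on chromosome X (134169538 to 134169612, minus strand), beside MIR19B2, which also encodes miR-19b-3p. The hairpins that give miR-92a-3p are shown with both mature arms in capitals, because the 3p arm is the same letters in each and its reads cannot be assigned to a locus.
MIR92A1: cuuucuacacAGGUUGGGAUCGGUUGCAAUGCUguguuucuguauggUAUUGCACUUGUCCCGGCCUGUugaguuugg
MIR92A2: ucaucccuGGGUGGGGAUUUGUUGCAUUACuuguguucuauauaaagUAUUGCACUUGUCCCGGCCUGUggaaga
The 5p arms do differ, and the arm of MIR92A1, miR-92a-1-5p, had 9 reads over the 6 libraries. The arm of MIR92A2, miR-92a-2-5p, had no row in the table used here.

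The miRNA counts summed to between 39211 and 66345 per library in EV_soft and to between 28688 and 30685 in EV_stiff. Every EV_soft library thus held more miRNA counts. By the study's methods, library volumes were adjusted to aim at equal read numbers, so these totals need not reflect sequencing depth. Why they differed was not tested. Levels are given as counts scaled to the library total after TMM scaling (CPM), and a count of 3, the most that a count of 0 allows, was worth between 44.2 and 107 CPM depending on the library. Epithelial markers (7 of 7 miRNAs detected, among them miR-205-5p and miR-200c-3p) summed to between 61119.8 and 70855 CPM in EV_soft and between 52969 and 54558 CPM in EV_stiff. The markers in this sum did not share a direction. Higher in EV_stiff, by log2 fold change, were miR-205-5p (0.20) and miR-203a-3p (1.21). Lower were miR-200c-3p (-1.10), miR-429 (-0.76), miR-200a-3p (-1.12) and miR-200b-3p (-0.73). The remaining marker, miR-141-3p, had 64 reads over all libraries and was not tested. Among markers of other cells, 3 of 4 of white blood cells summed to at most 2 reads in any library and 3 of 4 of stromal cells to at most 5, with miR-150-5p and miR-145-5p at 0. The endothelial miR-126-3p had at most 10 reads. Markers of red blood cells, which are also rich in miR-92a and miR-25, summed to between 442 and 1532 CPM in EV_soft and between 361 and 1949 CPM in EV_stiff, mostly from miR-486-5p and with both arms of miR-144 at 0. The liver miRNA miR-122-5p was at 2723 to 4279 CPM in EV_soft and 6371 to 7406 CPM in EV_stiff. The part of these other sources in the members' values was not tested.

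Together the 10 members held 8210 reads, or 3.39% ± 0.204 (SD, n = 3) of the miRNA counts in EV_soft and 3.41% ± 0.112 (SD, n = 3) in EV_stiff. The groups' totals differed by less than the spread between replicates. The miR-92 seed members made up 7522 of these reads and the miR-17 seed members 644, whereas the miR-19 pair had 37 and miR-18a-5p had 7. The plot of raw reads shows this range along each cluster.

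**Figure D1:**
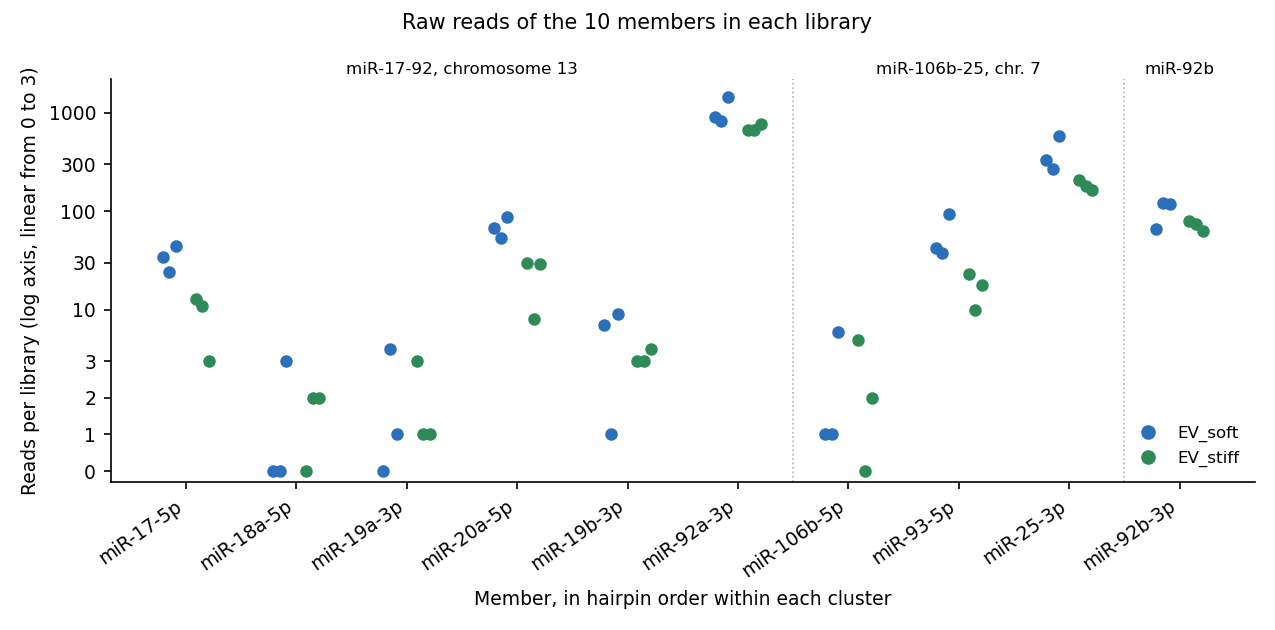
Reads of each of the 10 members (x axis, in hairpin order within each cluster) in each of the 3 EV_soft and 3 EV_stiff libraries; each point is 1 library, and the y axis is logarithmic above 3 reads and linear below. Among the miR-17-92 members, miR-92a-3p (from either of its loci) has between 668 and 1437 reads per library, miR-20a-5p between 8 and 88, and miR-18a-5p at most 3.

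Reads of miR-92a-3p, which the last hairpin of the cluster and the chromosome X locus both give, dominated. They made up 90.4% ± 0.880 (SD, n = 3) of the reads of the 6 miR-17-92 members in EV_soft and 94.9% ± 1.63 (SD, n = 3) in EV_stiff. In the paralogous cluster miR-25-3p held a like position, with 87.1% ± 1.62 (SD, n = 3) and 90.6% ± 3.61 (SD, n = 3) of the reads of its 3 members. The miRNAs are of nearly the same length (21 to 23 bases), so length hardly enters, but library preparation ligates different ends with different efficiency, and the order of levels is the order in these libraries only. By mean CPM over the 6 libraries, miR-92a-3p ranked 14 in the table, miR-25-3p ranked 25, miR-92b-3p ranked 42, miR-20a-5p ranked 69, miR-93-5p ranked 76 and miR-17-5p ranked 95. Over the 6 libraries the ranges of miR-92a-3p and miR-25-3p were separate from each other and from the rest, while those of neighbours from miR-92b-3p down to miR-17-5p overlapped.

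Of the 10 members, 6 passed edgeR's filter on low counts and were tested with the other 99 miRNAs that passed. To be called, a miRNA needed a log2 fold change over 0.58 in either direction together with an adjusted p no higher than 0.05. By edgeR's quasi-likelihood test 0 of the 6 tested members were called, against 19 of all 105 miRNAs tested (18.1%). At an unadjusted p under 0.05 there were 3 of 6 members (miR-17-5p, miR-93-5p and miR-92a-3p), where the table as a whole had 40.0%. DESeq2 and limma-voom called 0 members too, against 19 and 18 of all 105 miRNAs tested. edgeR's likelihood ratio test called 2, miR-17-5p and miR-93-5p, and called 27 miRNAs in all. The median log2 fold change was -0.53 over the 6 tested members, -0.88 over the 3 with the miR-17 seed and 0.26 over the 3 with the miR-92 seed, beside -0.04 over all miRNAs tested.

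**Figure D2:**
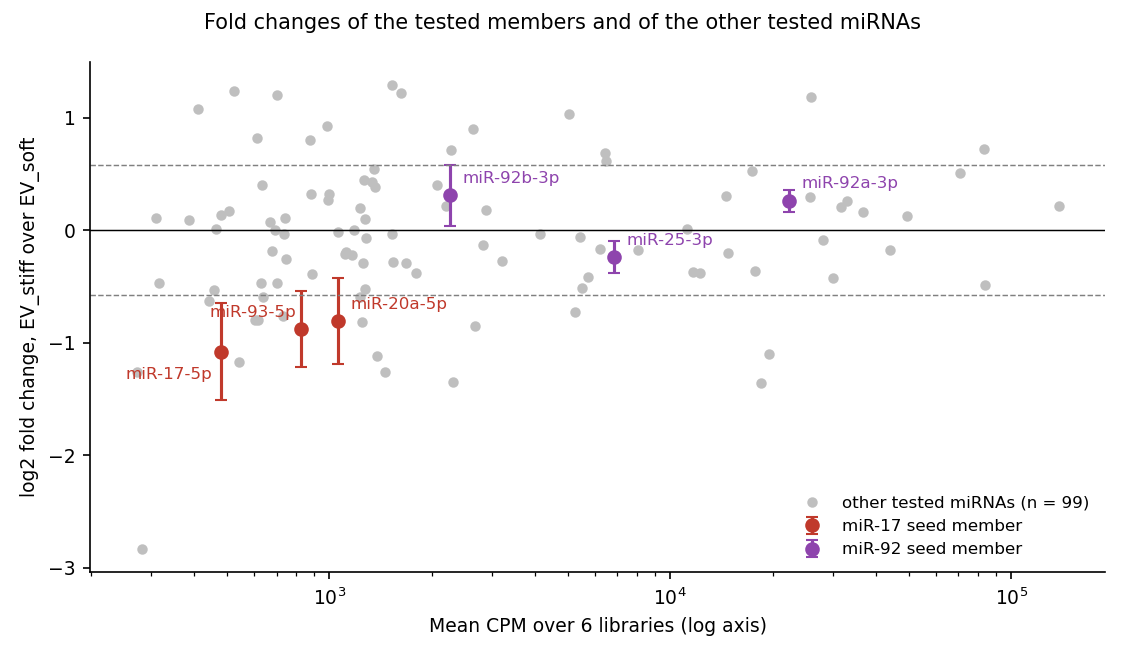
Log2 fold change (EV_stiff over EV_soft, y axis) against mean CPM over the 6 libraries (x axis, logarithmic) for the 105 miRNAs tested; bars on the members are standard errors and dashed lines mark 0.58 in either direction. The 3 members with the miR-17 seed sit between -1.08 and -0.81, and the 3 with the miR-92 seed between -0.24 and 0.31.

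The 3 tested miR-17 seed members were at lower levels in each EV_stiff library than in any EV_soft library. For miR-17-5p, the founding member of the family, the reads numbered 34, 24 and 44 in EV_soft replicates 1 to 3 and 13, 11 and 3 in EV_stiff replicates 1 to 3. This is 736, 583 and 648 CPM against 427, 389.8 and 107 CPM, with no overlap, and with EV_stiff replicate 3 lowest. The mean was 656 ± 76.7 CPM (SD, n = 3) in EV_soft and 308 ± 175 CPM (SD, n = 3) in EV_stiff, a fold of 0.47, or -1.08 ± 0.43 (SE) on the log2 scale (edgeR adjusted p = 0.0882). Without EV_stiff replicate 3 the log2 fold change was -0.68 (adjusted p = 0.177).

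For miR-20a-5p, which comes from the same primary transcript and shares the seed, the reads numbered 67, 54 and 88 in EV_soft and 30, 8 and 29 in EV_stiff. The levels were 1451, 1313 and 1295 CPM in EV_soft, close together, and 985, 283 and 1031 CPM in EV_stiff, where replicate 2 stood far below the others. No EV_stiff library reached the lowest EV_soft library. The means of 1353 ± 85.2 CPM and 766 ± 419 CPM (SD, n = 3 each) stood -0.81 ± 0.38 (SE) apart on the log2 scale (edgeR adjusted p = 0.132). Without EV_stiff replicate 2 it was -0.42 (adjusted p = 0.242).

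For miR-93-5p, the miR-17 seed member of the MCM7 cluster, the reads numbered 42, 38 and 93 in EV_soft and 23, 10 and 18 in EV_stiff. The levels were 909.5, 924 and 1369 CPM against 755, 354 and 639.8 CPM, again with EV_stiff replicate 2 lowest and no overlap. The means were 1067 ± 261 CPM and 583 ± 206 CPM (SD, n = 3 each), or -0.88 ± 0.34 (SE) on the log2 scale (edgeR adjusted p = 0.0745). It passed both thresholds when only miRNAs with at least 10 counts in every library were tested (log2 fold change -0.96, edgeR adjusted p = 0.0310). In that setting 22 of the 87 miRNAs tested were called. Without EV_stiff replicate 2 the log2 fold change of miR-93-5p was -0.63 (adjusted p = 0.205), and without EV_soft replicate 3 it was -0.64 (adjusted p = 0.248). The fourth miR-17 seed member, miR-106b-5p, had 1, 1 and 6 reads in EV_soft and 5, 0 and 2 in EV_stiff and was not tested. Its 8 and 7 reads gave a ratio of EV_stiff to EV_soft of 1.56 (exact 95% interval 0.483 to 4.94, counting error only), so its direction could not be read at these counts.

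Levels that did not overlap and were lower in EV_stiff were thus seen in 3 of the 6 tested members, and the same held for 24.8% of all miRNAs tested. The filter asked for 286 CPM in 3 libraries. That level was met in every EV_soft library by all 3, and in EV_stiff by 2 libraries for miR-17-5p, 2 for miR-20a-5p and 3 for miR-93-5p, so the first pair passed the filter mainly through the group in which they were high. Of the 52 other tested miRNAs with a mean under 1500 CPM, 28 had a log2 fold change below 0 and 12 passed 0.58 in the lower direction, with a median of -0.03.

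**Figure D3:**
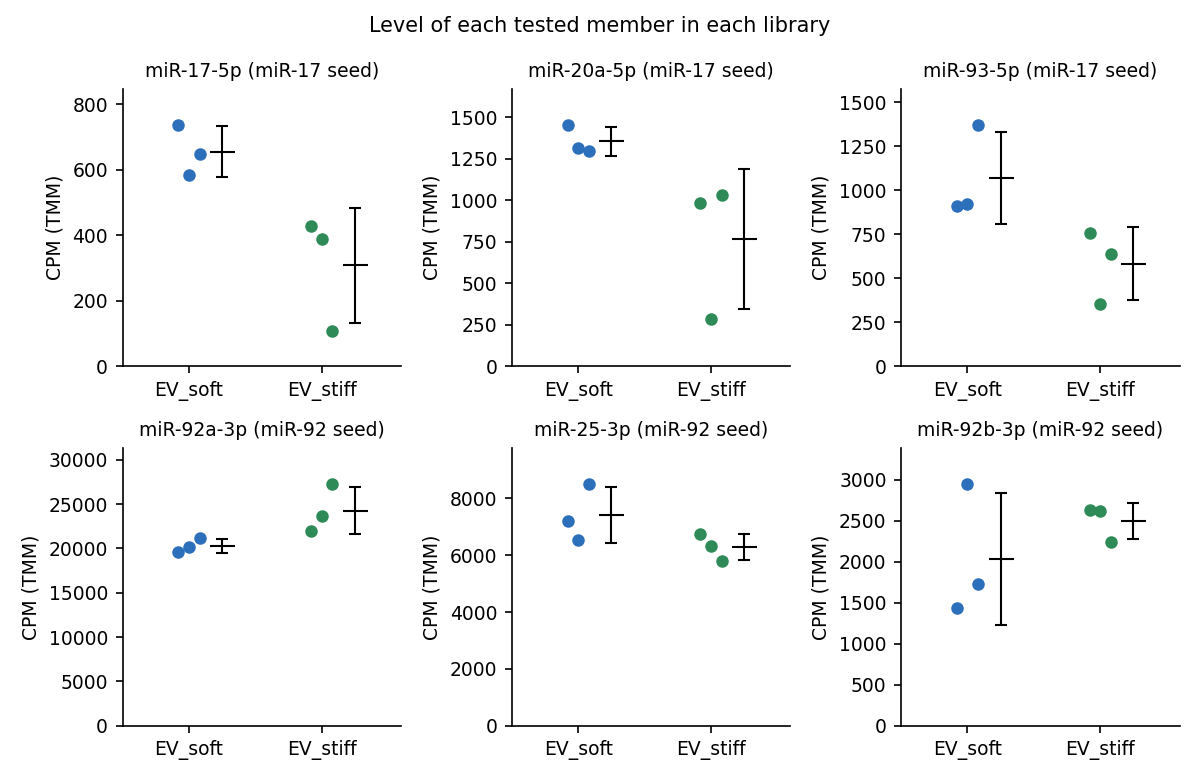
Levels (CPM after TMM scaling, y axis from 0) of the 6 tested members in the EV_soft and EV_stiff libraries, 1 panel for each member; points are libraries, and the horizontal mark with its bar is the mean ± SD of 3. The top row (miR-17 seed) shows no overlap between the groups, with EV_stiff lower, and in the bottom row (miR-92 seed) only miR-92a-3p shows no overlap, with EV_stiff higher.

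The miR-92 seed members did not share this pattern. For miR-92a-3p the levels were 19619, 20179 and 21152 CPM in EV_soft and 21936, 23671 and 27226 CPM in EV_stiff. Every EV_stiff library was above every EV_soft library, by a margin small beside the level. The mean was 20317 ± 776 CPM in EV_soft and 24278 ± 2696 CPM in EV_stiff (SD, n = 3 each), or 0.26 ± 0.10 (SE) on the log2 scale (edgeR adjusted p = 0.0928). Without EV_stiff replicate 3 the log2 fold change was 0.17 (adjusted p = 0.245). It was the single tested member higher without overlap, which was seen in 22.9% of all miRNAs tested.

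The closest partner by seed in the other cluster, miR-25-3p, was at 7211, 6539.9 and 8493 CPM in EV_soft and 6732, 6343 and 5793 CPM in EV_stiff. The groups overlapped, and EV_stiff stood at -0.24 ± 0.14 (SE) on the log2 scale (edgeR adjusted p = 0.201), which was -0.13 without EV_soft replicate 3. The levels of miR-92b-3p were 1429, 2942 and 1722 CPM in EV_soft and 2627, 2622 and 2239 CPM in EV_stiff, so that EV_soft replicate 2 was the highest library of all and the other 2 EV_soft libraries the lowest. EV_stiff stood at 0.31 ± 0.27 (SE) on the log2 scale (edgeR adjusted p = 0.413). Without EV_soft replicate 2 it was 0.66 with an adjusted p of 0.0289, past both thresholds, whereas without EV_soft replicate 1 it was 0.11 (adjusted p = 0.857), so the value for miR-92b-3p rests on single EV_soft libraries.

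Summed by cluster, the 6 miR-17-92 members held 2.31% ± 0.0884 (SD, n = 3) of the counts in EV_soft and 2.49% ± 0.196 (SD, n = 3) in EV_stiff, and the libraries of the groups overlapped. The 3 miR-106b-25 members held 0.875% ± 0.126 and 0.678% ± 0.0736 (SD, n = 3 each). The lowest EV_soft library, at 0.785% (95% Wilson interval 0.703% to 0.878%), was just above the highest EV_stiff library, at 0.759% (0.668% to 0.863%), a gap inside the counting error. Summed by seed, the miR-17 seed members held 0.314%, 0.298% and 0.348% of the counts in EV_soft and 0.231%, 0.101% and 0.175% in EV_stiff. The nearest libraries of the 2 groups, at 0.298% (95% Wilson interval 0.249% to 0.357%) and 0.231% (0.183% to 0.292%), had intervals that overlap. The miR-92 seed members held 3.06% ± 0.189 and 3.22% ± 0.117 (SD, n = 3 each), with overlap. These sums were not tested, because the members were chosen with results known.

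Ratios of members inside a library do not depend on the scaling between libraries. Per 100 reads of the miR-92 seed there were 11.0, 9.59 and 10.8 reads of the miR-17 seed in EV_soft and 7.45, 3.15 and 5.24 in EV_stiff. The mean was 10.5 ± 0.784 against 5.28 ± 2.15 (SD, n = 3 each), with no overlap. Among the miR-17-92 members, with miR-92a-3p counted from either of its loci, there were 3.75, 2.89 and 3.06 reads of miR-17-5p per 100 of miR-92a-3p in EV_soft and 1.95, 1.65 and 0.392 in EV_stiff, and 7.40, 6.51 and 6.12 reads of miR-20a-5p in EV_soft and 4.49, 1.20 and 3.79 in EV_stiff. The log2 ratios, with 0.5 added to each count, differed between EV_stiff and EV_soft by -1.48 for miR-17-5p (-0.81 without EV_stiff replicate 3) and by -1.25 for miR-20a-5p (-0.68 without EV_stiff replicate 2). Within the miR-106b-25 cluster there were 12.6, 14.1 and 16.1 reads of miR-93-5p per 100 of miR-25-3p in EV_soft and 11.2, 5.59 and 11.0 in EV_stiff, a difference of -0.65 in the log2 ratio (-0.33 without EV_stiff replicate 2). In each of these ratios the miR-17 seed member was scarcer beside its miR-92 seed neighbour in every EV_stiff library than in any EV_soft library. For miR-17-5p and miR-20a-5p this follows from the levels, since each was lower and miR-92a-3p higher in EV_stiff without overlap. Their lack of overlap is therefore no separate support.

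Between clusters, there were 36.8, 32.4 and 40.2 reads of miR-25-3p per 100 of miR-92a-3p in EV_soft and 30.7, 26.8 and 21.3 in EV_stiff, a difference of -0.48 in the log2 ratio of members that share a seed. The ratio of miR-92b-3p to miR-92a-3p overlapped between the groups (difference 0.11, turning to -0.08 without EV_soft replicate 1, exact permutation test, two-sided p = 0.800). Of 9 ratios between single members that were defined, 5 had enough reads (at least 3 of each member in every library). Of these 5, 4 showed no overlap, each with p = 0.10 in an exact two-sided permutation test (adjusted p = 0.125 over the 5). A p of 0.10 is the smallest that 3 libraries against 3 allow. How often ratios of other miRNAs show no overlap was not computed, and the levels alone showed none for 50 of the 105 miRNAs tested. All but the ratio of miR-93-5p to miR-25-3p share miR-92a-3p as reference, so they are not independent. The ratios of miR-17-5p and miR-20a-5p were added after the counts were seen, since each had fewer than 10 reads in an EV_stiff library, and so was the ratio of the summed seeds, which was not tested.

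**Figure D4:**
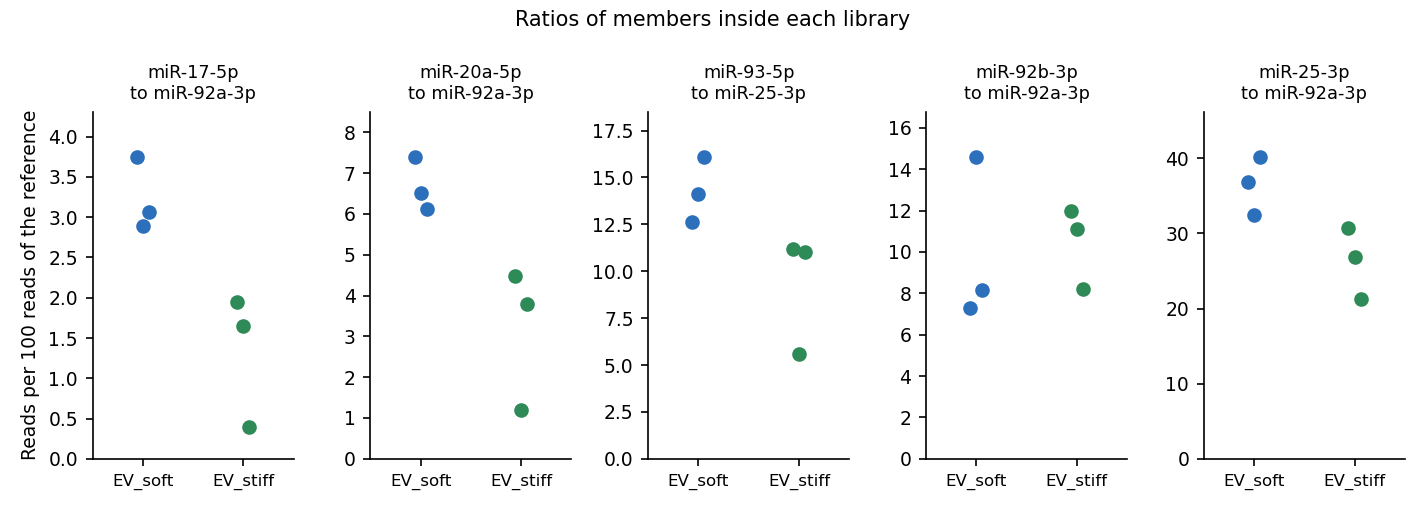
Reads of a member per 100 reads of a reference member in the same library (y axis from 0, a scale for each panel), with 1 point for each EV_soft or EV_stiff library. The ratios of miR-17-5p and miR-20a-5p to miR-92a-3p, of miR-93-5p to miR-25-3p and of miR-25-3p to miR-92a-3p are lower in EV_stiff with no overlap, and that of miR-92b-3p to miR-92a-3p overlaps.

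The miR-18 and miR-19 seed members were close to the limit of detection. Reads of miR-19b-3p, which together with miR-19a-3p is the best known oncogenic part of the cluster, numbered 7, 1 and 9 in EV_soft and 3, 3 and 4 in EV_stiff. Its ratio of EV_stiff to EV_soft was 1.05 (exact 95% interval 0.430 to 2.43, counting error only). For miR-19a-3p the 5 reads in EV_soft and 5 in EV_stiff gave 1.79 (0.412 to 7.77). For miR-18a-5p the 3 reads in EV_soft and 4 in EV_stiff gave 2.38 (0.403 to 16.3), and 3 of the 6 libraries had no read. These intervals reach well below and well above 1, so the direction of the miR-18 and miR-19 seeds cannot be read at these counts.

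Of the other arms and chromosome X paralogs, miR-106b-3p alone was abundant enough to test. Of 20 such names, 9 had a row, 8 had a read and 1 was tested, and 0 were called. The tested one was miR-106b-3p, which had 284 reads where the usual guide strand miR-106b-5p had 15, or 18.9 reads per read. The hairpin is shown with the 5p arm and then the 3p arm in capitals.
MIR106B: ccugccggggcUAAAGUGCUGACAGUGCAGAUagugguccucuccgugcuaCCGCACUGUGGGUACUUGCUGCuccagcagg
Levels of miR-106b-3p were 1126, 1313 and 1119 CPM in EV_soft and 887, 1417 and 1244 CPM in EV_stiff. They overlapped, and the mean was 1186 ± 110.0 CPM against 1183 ± 271 CPM (SD, n = 3 each, -0.00 ± 0.25 (SE) on the log2 scale, edgeR adjusted p = 0.992). It lies in the same MCM7 transcript as miR-93-5p, whose log2 fold change was -0.88, and the difference between them was not tested. Elsewhere the 3p arm outnumbered the 5p arm by 57.5 reads per read for miR-25 and 18.0 for miR-92b. For miR-92a the 9 reads of miR-92a-1-5p, 5 of them in EV_stiff replicate 1, were too few for such a ratio. For the cluster members near the limit of detection, miR-18a-3p had 16 reads beside 7 of miR-18a-5p, and miR-19b-1-5p had 1 beside 27 of miR-19b-3p. The arms miR-25-5p (23 reads in EV_soft, 7 in EV_stiff) and miR-92b-5p (16 and 13) were too few to read a direction, with ratios of EV_stiff to EV_soft of 0.544 (exact 95% interval 0.197 to 1.31) and 1.45 (0.643 to 3.22). Of the miRNAs that carry the same seeds but are no members, miR-20b-5p had 1 read, miR-363-3p had 2 and miR-32-5p had 13 over all libraries, so the members held nearly all reads of these seeds in the table.

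The seeds also go with base composition. The mature sequences of the tested miR-17 seed members had a GC content of 39.1% to 52.2%, and those of the tested miR-92 seed members 50.0% to 63.6%. Across the 92 tested miRNAs with a RefSeq sequence that are no members, GC content and log2 fold change had a Pearson r of 0.22 (Spearman rho 0.27), which is across miRNAs of the same libraries and is given as a description. The 54 of these in the GC range of the miR-17 seed members had a median log2 fold change of -0.03, and the 33 in the range of the miR-92 seed members a median of 0.20. The ranges overlap from 50.0% to 52.2%, so some miRNAs are in both sets. The part of base composition in the members' values was not tested.

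Among tested miRNAs that are no members, those whose log2 CPM followed miR-92a-3p most closely over the 6 libraries were miR-320c (Pearson r = 0.927), miR-320d (0.892) and miR-149-5p (0.880). Those closest to miR-17-5p were miR-222-3p (0.954), miR-27a-3p (0.939) and miR-200b-5p (0.931). These are descriptions over 6 libraries that fall into 2 groups and share their scaling, so part of each value is the distance between the groups.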

How the data were processed

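Small RNA from EVs was made into libraries with the NEBNext Small RNA kit from low input, and size selected. Quality control was by exceRpt, and the unnormalised counts per miRNA that the authors deposited follow RefSeq features. The labels name hg38. The aligner, and how reads that match several miRNAs were assigned, are not given in the sources used here, nor is removal of PCR duplicates, so intervals cover counting error only. Other columns left out numbered 0. Groups and replicate numbers came from the labels.

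The whole table was fitted in R 4.3.3 with edgeR 4.0.16 (filterByExpr, TMM, glmQLFit and glmQLFTest, no replicate block, Benjamini-Hochberg over all 105 miRNAs tested). The members and lists were chosen with earlier results of these data known. The study's methods name DESeq2 for its mRNA libraries and an unpaired two-tailed test for comparisons in general, with no test given for the miRNA counts in particular, and its thresholds (0.58 and 0.05) were used. The standard error is the log2 fold change divided by the square root of F. Ratios used counts plus 0.5 and an exact two-sided permutation test over libraries (scipy 1.17.1), for members with a minimum of 10 counts per library, or 3 for those added. Alternatives were limma-voom (limma 3.58.1), DESeq2 1.42.0, a likelihood ratio test in edgeR, thinning, other filters and scalings, leaving out single libraries, and a replicate block. The procedure was tested on simulated data. Named miRNAs are the members, their other arms and paralogs, fixed marker lists (red and white blood cell, stromal, endothelial, liver and epithelium), the 3 miRNAs most like miR-92a-3p and miR-17-5p, and others with the same seeds, chosen after their values were seen. Sequences are from RefSeq (GRCh38.p14), and gene annotation from GENCODE on GRCh38. Pairs of replicates of a group differed by more than sampling noise (chi-square per degree of freedom at least 3.40).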

Additional observations from a re-analysis of the deposited data

How the results depend on the processing

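The number of members called was 0. It was 2 with edgeR's likelihood ratio test and 4 when all libraries were given the same size. Under a minimum of 10 counts in each library it was 1 (miR-93-5p, where miR-17-5p and miR-20a-5p were not tested). When a library was left out it was from 0 to 1 (1 without EV_soft replicate 2, miR-92b-3p). The whole table had 27 calls of 105 tested with the likelihood ratio test. It had 22 of 87 under the minimum of 10 counts and 19 of 105 without EV_soft replicate 2. Equal sizes, which compare raw counts, moved the median of all tested miRNAs to -0.89 and gave 57 calls in the whole table, 0 higher and 57 lower, in place of 11 higher and 8 lower (0 were higher and 62 lower at an unadjusted p under 0.05). The log2 fold changes of miR-92a-3p and miR-92b-3p then turned to -0.59 and -0.49, and relative to that median they were 0.29 and 0.40, against -1.02, -0.75 and -0.87 for miR-17-5p, miR-20a-5p and miR-93-5p. With library size only, the table had 8 higher and 11 lower calls. Apart from equal library sizes, the 6 tested members kept their sign in every alternative that gave a value, and the log2 fold change lay between -1.43 and -0.68 for miR-17-5p, -1.08 and -0.42 for miR-20a-5p, -1.15 and -0.63 for miR-93-5p, 0.17 and 0.32 for miR-92a-3p, -0.33 and -0.13 for miR-25-3p, and 0.11 and 0.66 for miR-92b-3p. The difference in the log2 ratio of miR-92b-3p to miR-92a-3p ranged from -0.08 to 0.42 with a library left out, and the other 4 ratios kept their sign. With the replicate block the table had 16 calls and 0 members were called, and the correlations of same-numbered libraries (-0.13, 0.13 and -0.03) gave no sign that the numbers pair them. Low counts limit the miR-18 and miR-19 seeds and miR-106b-5p most.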
